A study of Mus musculus with 6 samples.

Results

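The vesicular glutamate transporters are encoded in the mouse by 3 genes, Slc17a6, Slc17a7 and Slc17a8, and these were taken by gene symbol from the 55359 genes measured. RNA was sequenced from the habenula of C57BL/6 mice aged 2 months, in 3 libraries labelled Tet2 cKO (conditional knockout of the DNA dioxygenase gene Tet2) and 3 wild-type (WT) libraries. No source used here gives the Cre driver of the knockout, the exons it removes, or the number of mice behind a library. The p-values therefore refer to library-to-library spread, which may be technical.

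Glutamate is packed into synaptic vesicles by these transporters, which are driven by the proton gradient that the vesicular ATPase builds up. VGLUT2, the product of Slc17a6, is the main form of the diencephalon and brain stem, and VGLUT1, the product of Slc17a7, is the main form of cortex and hippocampus. Medial habenula neurons are known to use both, and lateral habenula neurons mainly VGLUT2. VGLUT3, the product of Slc17a8, is found in scattered serotonergic, cholinergic and GABAergic neurons and in auditory hair cells.

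On GRCm38 (GENCODE M21), Slc17a6 (ENSMUSG00000030500) lies on the plus strand of chromosome 7 from 51622006 to 51671119. Slc17a7 (ENSMUSG00000070570) lies on the same strand of that chromosome from 45163949 to 45176142, 6.45 Mb away. Slc17a8 (ENSMUSG00000019935) lies on the minus strand of chromosome 10 from 89574020 to 89621253. The longest coding transcript of each has 12 exons, and they code for 582, 560 and 601 residues. Aligned coding bases were identical at 71.7% between Slc17a6 and Slc17a7, 71.0% between Slc17a6 and Slc17a8 and 69.7% between Slc17a7 and Slc17a8. The longest run shared by any pair of these transcripts was 25 bases, and no window of 50 bases was shared. No exon of another annotated gene lay on their exons. The most alike ungapped stretch of 60 coding bases, which crosses from exon 4 into exon 5 in each gene, is shown 5′ to 3′ with the bases that differ among the 3 genes in capitals:

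Slc17a6 (VGLUT2), chr7:51645111-51646237, plus strand: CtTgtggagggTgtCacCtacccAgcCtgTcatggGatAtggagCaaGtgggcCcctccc
Slc17a7 (VGLUT1), chr7:45170316-45170451, plus strand: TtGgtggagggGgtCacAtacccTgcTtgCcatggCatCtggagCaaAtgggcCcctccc
Slc17a8 (VGLUT3), chr10:89597482-89598645, minus strand: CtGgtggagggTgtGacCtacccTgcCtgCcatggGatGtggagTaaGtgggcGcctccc

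Here 47 of the 60 bases were the same in all 3 genes and 13 were not.

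Because Tet2 acts on methylated cytosine, mostly in CG pairs, the 250 bases before the most upstream RefSeq start of each gene (GRCm38.p6, 5′ to 3′ on the gene's strand) are shown with each CG in capitals:

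Slc17a6 (VGLUT2), chr7:51621580-51621829, plus strand: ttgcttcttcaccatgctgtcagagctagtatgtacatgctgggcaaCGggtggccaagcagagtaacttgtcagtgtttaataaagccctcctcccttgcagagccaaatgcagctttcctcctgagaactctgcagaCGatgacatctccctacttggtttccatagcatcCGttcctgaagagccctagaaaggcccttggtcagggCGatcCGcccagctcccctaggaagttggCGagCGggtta
Slc17a7 (VGLUT1), chr7:45163671-45163920, plus strand: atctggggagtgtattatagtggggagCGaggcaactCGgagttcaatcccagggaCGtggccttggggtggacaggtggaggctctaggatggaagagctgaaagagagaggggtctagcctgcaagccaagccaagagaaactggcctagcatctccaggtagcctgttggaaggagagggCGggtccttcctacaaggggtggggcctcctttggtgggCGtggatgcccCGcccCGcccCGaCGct
Slc17a8 (VGLUT3), chr10:89621250-89621499, minus strand: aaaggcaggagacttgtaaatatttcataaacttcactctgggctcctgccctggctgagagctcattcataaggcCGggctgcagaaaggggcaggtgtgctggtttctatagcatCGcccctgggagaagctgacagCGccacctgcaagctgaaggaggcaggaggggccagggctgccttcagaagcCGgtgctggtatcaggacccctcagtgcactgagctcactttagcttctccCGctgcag

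The motif CG, counted on the printed strand (it reads the same on the other), occurred 9 times before Slc17a7, 7 times before Slc17a6 and 5 times before Slc17a8. At least as many were found in 40.3%, 46.3% and 55.6% of the 32841 windows of that length in the RefSeq table, whose median was 6. Methylation was not measured here.

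The series as a whole sets the frame for these genes. Library totals lay between 17441429 and 17917987 counts in the cKO-labelled libraries and between 16089676 and 17743639 counts in WT. The habenula marker gene Gpr151 was detected in every library, at 71.7, 50.3 and 66.6 FPKM (fragments per kilobase of exon, scaled to library size) in the cKO-labelled libraries and 60.2, 81.0 and 37.5 FPKM in WT. WT replicate 3 stood apart from the other libraries, at -30.4 on a first principal component that held 34.5% of the variance. The others lay between -8.12 and 14.8 on it. Mitochondrial genes took 7.66% of the counts of WT replicate 3, against 5.43% to 6.44% in the others. Tet2 itself was not lower but higher under the Tet2 cKO label, at 4.47, 4.02 and 3.96 FPKM against 3.45, 3.46 and 3.71 FPKM in WT. The groups did not overlap, and the log2 difference was 0.22 (edgeR unadjusted p = 0.0174, Benjamini-Hochberg adjusted p = 0.9999). The count covers the whole gene, so it cannot check a deletion of part of it, and every direction below is that of the label.

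Slc17a6 was among the most abundant transcripts of the tissue. It stood at 118, 129.6 and 123 FPKM in the 3 libraries labelled Tet2 cKO and at 132, 118 and 118 FPKM in the 3 WT libraries. The groups overlapped, and WT replicate 1 was the highest library. By mean level it was number 222 of the 14539 genes tested (those averaging 1 FPKM or more), above 98.5% of them. Its counts, 10224 to 12536 a library, leave a counting error of 0.93%.

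Slc17a7 stood lower, at 45.1, 38.0 and 38.5 FPKM in the libraries labelled Tet2 cKO and 45.1, 48.3 and 29.8 FPKM in WT. The groups overlapped again, and both the highest and the lowest library were WT. It was number 1055 by mean level. WT replicate 3 was the lowest, at 0.694 times the mean of the other 5 libraries, and on the log2(FPKM + 1) scale 3.33% of the tested genes were as low or lower in that library.

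Slc17a8 was near the lower limit of the genes tested. It stood at 0.95, 0.90 and 1.33 FPKM in the libraries labelled Tet2 cKO and 1.22, 1.09 and 1.48 FPKM in WT, with a mean of 1.16 FPKM over all 6 against the minimum of 1 FPKM. Those values rest on 78, 76 and 112 counts in the cKO-labelled libraries and 100, 83 and 124 counts in WT. Exact Poisson 95% intervals ran from 59.9 to 95.1 for the lowest of these counts and from 103 to 148 for the highest, which cover counting error only. Serotonergic neurons are known to use VGLUT3, and the 6 markers listed for them differed in level. Tph2, which encodes the serotonin-making enzyme of neurons, stood at 0.10, 0.06 and 0.19 FPKM in the cKO-labelled libraries and 0.04, 0.04 and 0 FPKM in WT. Ddc and Slc18a2, which other monoamine cells also use, passed the expression filter and stood above Slc17a8, with means over the 6 libraries of 3.89 and 2.87 FPKM. The more specific Slc6a4, Fev and Gata3 averaged 0.0067, 0.047 and 0.3 FPKM over the 6 libraries, below Slc17a8. The 6 markers summed to 6.94 to 7.61 FPKM under the label and 6.72 to 7.43 FPKM in WT, most of it Ddc and Slc18a2. Their part in the level of Slc17a8 was not tested.

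**Figure D1:**
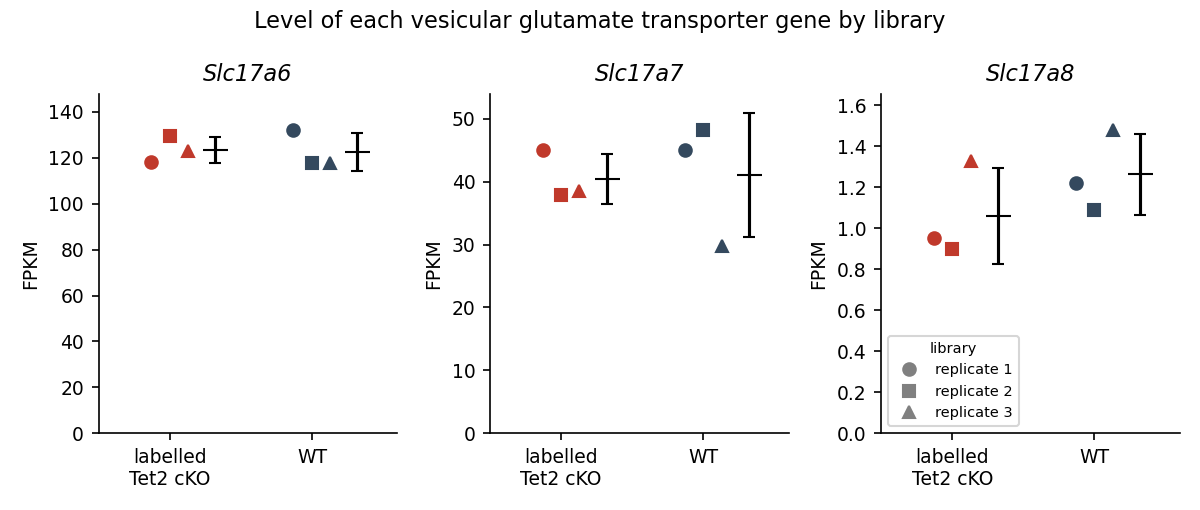
Level (FPKM, axes from 0 and scaled separately for each gene) of Slc17a6, Slc17a7 and Slc17a8 in each library, with libraries labelled Tet2 cKO left of WT. Points are libraries, with a marker shape for each replicate number, and bars give the mean ± SD (n = 3 each). The groups overlap for all 3 genes, and WT replicate 3 is lowest for Slc17a7 (29.8 FPKM) and highest for Slc17a8 (1.48 FPKM).

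The order Slc17a6, Slc17a7, Slc17a8 held in each of the 6 libraries. The lowest Slc17a6 level (118 FPKM) lay above the highest Slc17a7 level (48.3 FPKM), and the lowest Slc17a7 level (29.8 FPKM) above the highest Slc17a8 level (1.48 FPKM), so no neighbours in the order came within their spread. Of the summed FPKM of the 3 genes, Slc17a6 held 71.9%, 76.9% and 75.6% in the cKO-labelled libraries and 74.1%, 70.5% and 79.0% in WT. Slc17a8 held between 0.53% and 0.82% under the label and between 0.65% and 0.99% in WT.

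The level of Slc17a7 per unit of Slc17a6 was 0.382, 0.293 and 0.313 in the libraries labelled Tet2 cKO and 0.341, 0.410 and 0.253 in WT. The means were 0.329 ± 0.047 and 0.335 ± 0.079 (SD, n = 3 each), and the WT range enclosed every library labelled Tet2 cKO. These ratios depend on the length used. The deposited exonic sizes, 5399 bases for Slc17a6 and 5392 bases for Slc17a7, exceed their longest coding transcripts of 4137 and 2915 bases. With the transcript lengths, a choice made after the data were seen, the mean ratio over the 6 libraries was 0.471, against 0.332, and Slc17a6 stayed the higher gene in each library.

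The other transmitter transporters and SLC17 genes named in this paragraph were lower than Slc17a6 and Slc17a7 on the same FPKM scale. These genes were named for their role rather than by the rule for named genes. Slc18a3, which loads acetylcholine and serves the cholinergic medial habenula neurons, averaged 3.81 ± 1.02 FPKM in the cKO-labelled libraries and 3.81 ± 1.22 FPKM in WT (SD, n = 3 each). Slc18a2, which loads monoamines, averaged 2.96 ± 0.33 FPKM under the label and 2.78 ± 0.20 FPKM in WT (SD, n = 3 each). Slc32a1, which loads GABA and glycine, ranged from 0.80 to 3.85 FPKM under the label and from 1.03 to 4.45 FPKM in WT. Within the SLC17 family, the lysosomal sialic acid exporter Slc17a5 averaged 5.80 ± 0.25 FPKM under the label and 5.92 ± 0.11 FPKM in WT (SD, n = 3 each). The nucleotide transporter Slc17a9 had at most 0.25 FPKM under the label and 0.31 FPKM in WT. Slc17a1, Slc17a3 and Slc17a4 had no count in any library, and Slc17a2 had at most 3.

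**Figure D2:**
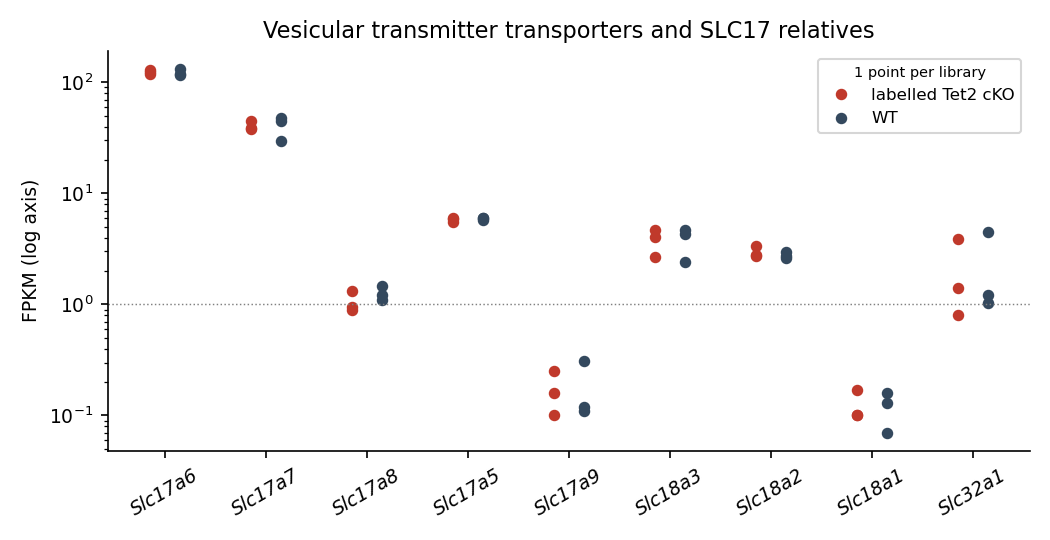
Level (FPKM, log axis) of the vesicular glutamate transporter genes and of other SLC17 and vesicular transmitter transporter genes, with 1 point per library and the libraries labelled Tet2 cKO left of WT. The dotted line marks 1 FPKM. Slc17a6 and Slc17a7 lie above every other gene plotted, and Slc17a8 lies at 0.90 to 1.48 FPKM.

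The libraries labelled Tet2 cKO were compared with WT for these genes, and none of the 3 passed. The counts do not show a loss of Tet2, so the comparison is one of labels. For Slc17a6 the log2 difference was 0.0032 (SE 0.0756, 95% interval -0.17 to 0.17), with a fold interval of 0.891 to 1.13. For Slc17a7 it was -0.027 (SE 0.154, 95% interval -0.37 to 0.32), or 0.981-fold with an interval of 0.773 to 1.25. For Slc17a8 it was -0.27 (SE 0.204, 95% interval -0.73 to 0.19), or 0.829-fold with an interval of 0.605 to 1.14. The edgeR quasi-likelihood test gave unadjusted p = 0.967, 0.864 and 0.216 for Slc17a6, Slc17a7 and Slc17a8, and a Benjamini-Hochberg adjusted p = 0.9999 for each over 14539 genes. The exact two-sided permutation test on FPKM gave p = 0.8, p = 1 and p = 0.3, where 3 libraries against 3 cannot give less than 0.1. Of all genes tested, 0% passed at an adjusted p under 0.05 by edgeR or limma (DESeq2 called 4 genes), 2.57% (374 genes) had an unadjusted p under 0.05 (0.894% higher and 1.68% lower under the Tet2 cKO label), and 6.8% had groups that did not overlap. The intervals differ in width, and for Slc17a6 a change of more than 1.13-fold in either direction lies outside the interval.

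The direction of 2 of these differences depended on single libraries. For Slc17a7 without WT replicate 3 the log2 difference was -0.20 (SE 0.0779, edgeR unadjusted p = 0.0235, Benjamini-Hochberg adjusted p = 0.808). In that fit 865 of the 14539 genes had an unadjusted p under 0.05, against 374 with all libraries. The Slc17a7 difference was positive without WT replicate 1 (0.048), WT replicate 2 (0.10), Tet2 cKO replicate 2 (0.019) or Tet2 cKO replicate 3 (0.012). Slc17a6 stayed between -0.033 and 0.064 when each library was left out, and was negative without Tet2 cKO replicate 2, WT replicate 2 or WT replicate 3. Slc17a8 was negative each time, between -0.46 without Tet2 cKO replicate 3 and -0.13 without WT replicate 3.

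The spread between libraries differed among the genes. The biological coefficient of variation was 7.76% for Slc17a6 and 13.8% for Slc17a7, against a median of 9.69% over the tested genes. It was lower than that of Slc17a6 in 18.4% of the genes tested and lower than that of Slc17a7 in 78.0%. For Slc17a8 it was 15.6%, on top of a counting error of 10.2%.

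The libraries' order by Slc17a7 was that of the medial habenula markers, and nearly that of the cortical and hippocampal markers described below. The score of 14 such markers (the mean of log2(FPKM + 1)) was 4.27, 3.86 and 4.17 in the libraries labelled Tet2 cKO and 4.22, 4.42 and 3.59 in WT. WT replicate 2 was the highest in both score and Slc17a7 level, followed by Tet2 cKO replicate 1 and WT replicate 1, and WT replicate 3 was the lowest. In that library 12 of the 14 markers were at their lowest of the 6, with a median difference of -0.75 from the mean of the other 5 on the log2(FPKM + 1) scale, where Slc17a7 was at -0.51 and Slc17a6 at -0.075. The summed level of all 14 was 454 to 561 FPKM in the cKO-labelled libraries and 488 to 592 FPKM in WT, and none was at 0. The lowest sum was that of Tet2 cKO replicate 2. Calb2, the most abundant of the 14, was highest in WT replicate 3. It stood at 274, 251 and 274 FPKM under the label and 306, 273 and 332 FPKM in WT. Its log2 difference was -0.20 (edgeR unadjusted p = 0.0382, Benjamini-Hochberg adjusted p = 0.9999). Tac1 was not at its lowest in WT replicate 3 either, at 5.72 FPKM. Tac2, which encodes neurokinin B, stood at 57.9, 32.1 and 42.0 FPKM in the cKO-labelled libraries and 46.0, 49.6 and 30.8 FPKM in WT. Over the 6 libraries Pearson's r with Slc17a7 was above 0.9 for 9 of 14 medial habenula markers, and for 265 of the 12411 other genes searched (2.14%). The search left out predicted genes and clones. Without WT replicate 3 it was above 0.9 for 2 of 14, and for 245 of the 12411 genes (1.97%). The median r with the 14 was 0.914 over the 6 libraries, against 0.065 over all those genes. Without WT replicate 3 these medians were 0.753 and 0.014. Over the 6 libraries r with the 14 ran from -0.47 to 0.99. These are descriptions over the same 6 libraries, without a test, and in bulk tissue fewer cells of a type and less RNA per cell cannot be told apart.

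Slc17a6 and Slc17a8 did not share that order. The median r with the 14 medial habenula markers was 0.016 for Slc17a6 and -0.40 for Slc17a8, and none of the 14 was above 0.9 for either gene. Both medians depended on WT replicate 3, and without it they were -0.65 for Slc17a6 and 0.40 for Slc17a8. With 10 lateral habenula markers the median r was -0.14 for Slc17a6, and 0.074 without WT replicate 3. With 11 thalamic neuron markers, another source of VGLUT2 beside the habenula, it was 0.17, and 0.10 without that library. Over all genes searched it was -0.048, and -0.081 without that library. Prkcd, a thalamic marker that encodes a protein kinase C, stood at 110, 119.7 and 93.7 FPKM in the cKO-labelled libraries and 108, 114.5 and 95.3 FPKM in WT, and the 11 markers summed to 441 to 485 FPKM under the label and 427 to 470 FPKM in WT, with none at 0. Their part in the level of Slc17a6 was not tested.

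Cortical and hippocampal neurons are the best known source of VGLUT1, and the markers listed for them differed in level. Neurod6 stood at 0.51, 0.42 and 0.49 FPKM in the cKO-labelled libraries and 0.35, 0.49 and 0.34 FPKM in WT. Tbr1 stood at 0.33, 0.13 and 0.31 FPKM under the label and 0.32, 0.49 and 0.30 FPKM in WT. Emx1 was at most 0.13 FPKM under the label and 0.31 FPKM in WT, and had no count in Tet2 cKO replicate 3. The transcription factor genes Neurod2 and Bhlhe22 were higher, with means over the 6 libraries of 1.65 and 5.89 FPKM, as were Wfs1 (9.14 FPKM), Fibcd1 (7.32 FPKM) and C1ql2 (6.67 FPKM). Bhlhe22 and C1ql2 had log2 differences of -0.29 and -0.57 (edgeR unadjusted p = 0.0233 and 0.0237, Benjamini-Hochberg adjusted p = 0.9999 each), and the groups of Bhlhe22 did not overlap. Of the 15 genes listed, 8 passed the expression filter and none was at 0 throughout. Their summed level was 139 to 159 FPKM under the label and 125 to 183 FPKM in WT, most of it Camk2a and Nrgn, kinase and calmodulin-binding genes that are expressed by many forebrain neurons. The score of the 15 genes was 2.07, 1.884 and 2.004 in the cKO-labelled libraries and 2.044, 2.241 and 1.905 in WT. This was the order by Slc17a7, except that Tet2 cKO replicate 2 lay below WT replicate 3. The median r of the 8 with Slc17a7 was 0.37, and 0.53 without WT replicate 3. Over the 6 libraries r was above 0.9 for 1 of the 8. Markers of GABAergic neurons ran the other way in WT replicate 3, where their score was the highest of the 6, at 2.35. It was 1.78 and 1.99 in the other WT libraries and 1.80, 2.24 and 1.91 under the Tet2 cKO label. The part of these cells in the level of Slc17a7 was not tested.

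**Figure D3:**
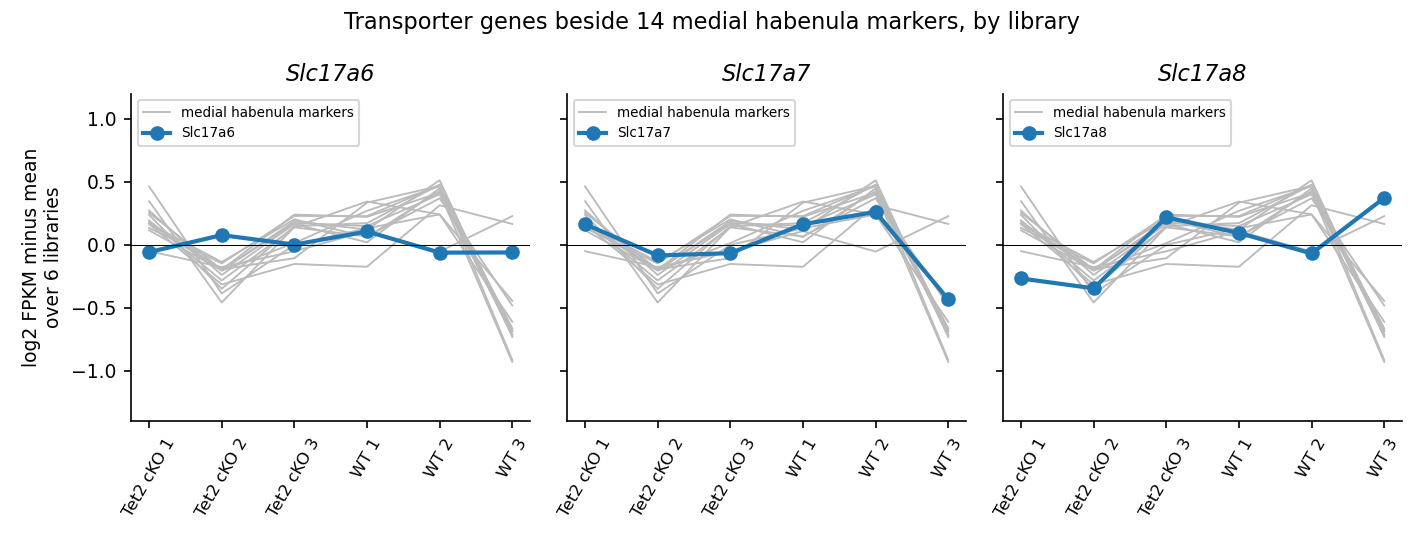
Profile over the 6 libraries of each vesicular glutamate transporter gene (blue) and of 14 medial habenula markers (grey), as log2 FPKM minus the mean over the 6 libraries, with libraries labelled Tet2 cKO left of WT. Slc17a7 follows most of the grey lines, with its lowest value in WT replicate 3, while Slc17a6 stays near 0 and Slc17a8 has its highest value in that library.

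By the rule for genes of like pattern, the 5 genes with the highest Pearson r on log2(FPKM + 1) over the 6 libraries were taken for each transporter. For Slc17a7 these were Ppp4r3a, Fchsd2, Tfe3, Myoc and Kcng4, with r from 0.988 to 0.995. Kcng4, a modulatory potassium channel subunit, is itself among the medial habenula markers, and stood at 10.3, 7.98 and 8.48 FPKM in the cKO-labelled libraries and 11.5, 12.6 and 5.72 FPKM in WT. Myoc stood at 4.34, 2.99 and 3.21 FPKM under the label and 3.85, 4.61 and 1.68 FPKM in WT. For Slc17a6 they were Kcna4, Hmbox1, Cx3cr1, Galr1 and Rai2, with r from 0.976 to 0.988. Kcna4, a voltage-gated potassium channel subunit, stood at 8.57, 9.88 and 9.21 FPKM under the label and 9.95, 8.58 and 8.41 FPKM in WT. For Slc17a8 they were Phyhip, Slc35a2, Csnk1g2, Spr and Hps4, with r from 0.984 to 0.998. In all, 58 and 76 of the 12411 genes exceeded 0.9 for Slc17a6 and Slc17a8 (0.467% and 0.612%). Each set of 5 holds the highest values of a search of that many genes over 6 libraries. A high r follows from such a search, so it does not show a shared pattern, and none was tested.

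The other genes of glutamate loading were described from lists of glutamate supply, uptake, vesicular transport and the vesicular proton pump. Of 54 listed genes 45 were tested, and none passed in either direction by edgeR. The log2 difference was positive in 16 and negative in 29, with a median of -0.015, against -0.0021 over all genes tested. Slc38a5 and Slc30a3 had an unadjusted p under 0.05, both lower under the label, against 1.68% lower over all genes tested. Groups did not overlap in 5 of the 45, against 6.8% over all genes tested. Markers of 2 neighbouring tissues were also lower under the label at an unadjusted p under 0.05, in 8 of 10 for choroid plexus and 6 of 8 for ependymal cells. Choroid plexus markers summed to 170 to 822 FPKM under the label and 447 to 1397 FPKM in WT, and ependymal markers to 44.8 to 54.2 FPKM under the label and 60.4 to 75.9 FPKM in WT, with none at 0. Groups did not overlap in 1 of 10 choroid plexus markers and 6 of 8 ependymal markers, against 6.8% over all genes tested. Astrocyte markers mostly lay the other way, with a positive log2 difference in 8 of 10. Their groups did not overlap in 5 of 10, among them Sox9, which was lower under the label. Aqp4, the astrocytic water channel gene, and Gja1, a gap junction gene, had log2 differences of 0.57 and 0.22 (edgeR unadjusted p = 0.00385 and 0.0133, Benjamini-Hochberg adjusted p = 0.9999 each), and Sox9, a glial transcription factor gene, had one of -0.26 (edgeR unadjusted p = 0.025). The astrocyte list also holds Slc1a2 and Slc1a3, and its 10 genes summed to 389 to 403 FPKM under the label and 330 to 374 FPKM in WT. The part of these cells in the pathway genes, the astrocytic Glul, Slc1a2 and Slc1a3 included, was not tested.

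Among the 14 genes of glutamate supply, the most abundant was Glul, the astrocytic enzyme that turns glutamate into glutamine. It stood at 368, 383 and 379 FPKM in the cKO-labelled libraries and 393, 396 and 453 FPKM in WT. The groups did not overlap, and the log2 difference was -0.15 (SE 0.0761). Got1, an aspartate aminotransferase, and Glud1, glutamate dehydrogenase, differed by -0.032 and 0.089 on the log2 scale. The smallest unadjusted p was that of Slc38a5, a glutamine transporter, at 1.64, 1.37 and 1.77 FPKM under the label and 1.96, 2.11 and 2.29 FPKM in WT (log2 difference -0.42, SE 0.182, edgeR unadjusted p = 0.0446, Benjamini-Hochberg adjusted p = 0.9999).

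Uptake genes lay close to 0, with 6 of 8 tested and a median log2 difference of -0.056. The astrocytic transporters Slc1a2 and Slc1a3 averaged 101 ± 7.11 and 38.5 ± 3.6 FPKM under the label and 97.0 ± 9.87 and 42.1 ± 2.52 FPKM in WT (SD, n = 3 each), with log2 differences of 0.058 and -0.14. Slc1a4, a neutral amino acid transporter of the same family, differed by 0.083.

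Of 16 other SLC17, vesicular transporter and vesicle genes 9 were tested. The vesicle glycoprotein genes Sv2a and Sv2b and the chloride/proton exchanger Clcn3 differed by 0.045, 0.027 and 0.049 on the log2 scale. Slc30a3, which loads zinc into glutamate vesicles, had the smallest unadjusted p of all 45 genes. It stood at 3.84, 4.37 and 3.95 FPKM in the cKO-labelled libraries and 5.04, 4.96 and 5.97 FPKM in WT, with groups that did not overlap (log2 difference -0.40, SE 0.122, edgeR unadjusted p = 0.00833, Benjamini-Hochberg adjusted p = 0.9999). It did not pass.

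All 16 proton pump genes were tested, and none of their groups were apart. The log2 differences ran from -0.068 to 0.093, and 4 of the 16 were positive. Atp6ap2, Atp6v0e2 and Atp6ap1, the most abundant, averaged 155.5, 128 and 117 FPKM under the label and 155.9, 129 and 119 FPKM in WT. Atp6v0c, the subunit of the proton-carrying ring, had the smallest unadjusted p of the list, with a log2 difference of 0.093 (SE 0.0654).

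**Figure D4:**
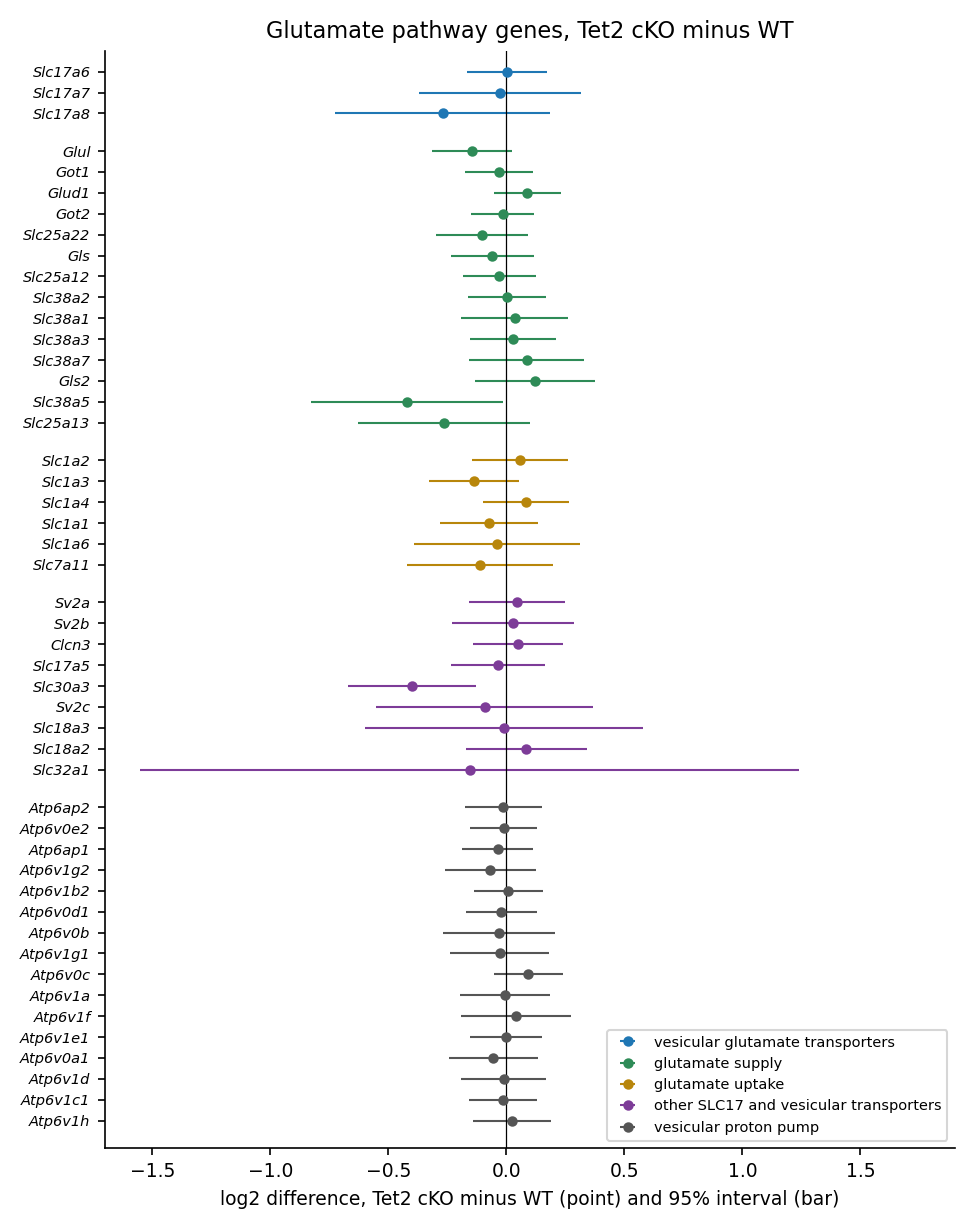
Log2 difference, libraries labelled Tet2 cKO minus WT (points), with 95% intervals from the edgeR quasi-likelihood fit (bars), for the vesicular glutamate transporters and the 45 tested genes of the glutamate pathway lists, each list in order of mean FPKM. Every point lies between -0.42 and 0.12, and none of these genes passed at an adjusted p under 0.05.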

How the data were processed

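Total RNA of the habenula was sequenced in 3 libraries labelled Tet2 cKO and 3 WT libraries. The submitters' processing notes name build mm10 and the tools HISAT2 2.0.1, SAMtools 0.1.19, cutadapt 1.9.1 and FastQC 0.10.1. No source used here gives the read counter, annotation release or strand setting. The authors deposited raw counts and FPKM values per gene, per the file headers. Dividing each count by exonic size and library total gave the deposited FPKM within 0.0051 for 100% of values. Exonic size was used as deposited. The table's coordinates differ from GRCm38, so positions come from GENCODE M21 by gene identifier.

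The 14539 genes averaging 1 FPKM or more were tested with edgeR 4.0.16 (R 4.3.3, quasi-likelihood, TMM, no covariate, two-sided, fold changes as Tet2 cKO over WT), with Benjamini-Hochberg adjustment at 0.05. Alternatives used limma 3.58.1, DESeq2 1.42.0, other filters and scalings, a replicate block and leaving out each library. Permutation tests used SciPy 1.17.1, alignments Biopython 1.88. Simulated counts for this comparison (14539 genes, 200 changed) were recovered by edgeR in 62.7% of genes changed 1.5-fold and 88.1% of those changed 2-fold, and 5.78% of 173 calls were false. Each gene was simulated independently, with no shift shared by many genes as in WT replicate 3, so these rates may not hold for the real libraries.

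Besides Tet2 and the transporters, named genes are the 3 most abundant of each pathway list and the one with its smallest p, the 5 most alike in pattern (predicted genes and clones left out), and markers described beside a member. Genes outside this rule were picked with their values in view. The transporter genes and all lists were chosen with earlier results of these data known. Marker lists of astrocytes, oligodendrocytes, microglia, endothelial cells, ependymal cells and choroid plexus were also examined. Their median log2 differences were 0.12, 0.096, 0.043, -0.043, -0.46 and -1.20, that of 10 lateral habenula markers was -0.055, and no member of any list passed.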

Additional observations from a re-analysis of the deposited data

How the results depend on the processing

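Slc17a8 kept a negative log2 difference that did not pass in every one of the alternatives run. Slc17a6 was positive in all but 3 of the fits that left out a library, and leaving out each library in turn gave -0.033 to 0.064. Slc17a7 changed sign with limma on log2(FPKM + 1) and log2(FPKM + 0.1), which gave 0.0065 and 0.0073, and ranged from -0.20 to 0.10 when each library was left out. None of the 3 passed at an adjusted p under 0.05 in any alternative. The number of genes called was 0, against 49 without a filter on low values, 2 with edgeR's own filter, 4 with DESeq2 and 0 to 3 when each library was left out. The number was 0 with limma, with DESeq2's size factors in edgeR and with library totals only. The median of the glutamate pathway lists was -0.015, and -0.032 to -0.0047 when each library was left out. The difference between groups in the log2 ratio of Slc17a7 to Slc17a6 was -0.0051, and -0.19 to 0.16 when each library was left out. Its mean over the libraries was -1.61, -1.67 to -1.53 when each was left out, and -1.11 with transcript lengths, which differ from the exonic sizes by construction.

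Same-numbered libraries deviated together in 1 of 3 pairs (r = -0.041, 0.18 and -0.10 for replicates 1, 2 and 3). Pairs with different numbers ranged from -0.20 to 0.19. No pairing by number was seen, and 3 libraries a group are too few to exclude one. With the replicate number as a block, edgeR gave 0.0042, -0.0019 and -0.28 for Slc17a6, Slc17a7 and Slc17a8 and called 0 genes.

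Counting error was 10.2% for Slc17a8, 1.62% for Slc17a7 and 0.93% for Slc17a6, each below that gene's biological coefficient of variation.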
